A study of Mus musculus with 20 samples.

Results

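The kallikrein and serpin genes were the 94 gene symbols of the deposited count table that begin with Klk and a digit or with Serpin, out of 43472 symbols in all. They comprise 27 kallikreins, which are proteases, and 67 serpins, most of which inhibit proteases. Of these, 19 reached at least 10 normalized counts (counts divided by the library's size factor) in at least 5 of 20 libraries and were tested among 15261 genes. The tested members were 1 kallikrein, Klk1b11, and 18 serpins. Of the 75 that stayed below this level, 46 had at least 1 count somewhere (14 kallikreins and 32 serpins) and 29 had none in any library (12 kallikreins and 17 serpins).

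The libraries came from the ventral prostate of C57BL/6J wild-type (WT) males and of ARNoC/Y males, which carry an altered copy of the X-linked androgen receptor gene. The line is known as a model in which contact between the amino-terminal and carboxy-terminal ends of the receptor is disrupted. All males of all groups had been orchidectomised, so that the vehicle groups lacked testicular androgen, and then received vehicle or testosterone for 4 days. Each genotype thus had a vehicle group and a testosterone group, 4 groups in all, of 5 libraries each. RNA was taken from whole tissue, so that fewer cells of a type and less RNA per cell cannot be told apart in any result. The sources used here do not give age, hormone dose or whether each library is a separate animal, and the p-values measure only the spread between these libraries.

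Tissue kallikreins are secreted serine proteases with trypsin-like or chymotrypsin-like specificity. Their genes stand side by side in a single cluster, and in rodents the cluster has gained many near-identical Klk1b copies, some known for androgen-dependent expression in the salivary gland; human KLK3, prostate-specific antigen, belongs to the same cluster but has no direct mouse counterpart. Serpins act as suicide substrates: the protease cuts an exposed loop of the serpin, which then snaps into a new fold and traps the enzyme. Clade A serpins are mostly secreted, clade B serpins mostly stay inside cells and guard against stray granule and lysosomal proteases, and some members, such as the collagen chaperone Serpinh1, inhibit no protease.

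Libraries held 8861646 to 21600352 counts. The luminal marker Pbsn was present in all groups, with group means of 1432 to 19610 normalized counts. Its libraries differed widely, as in WT with testosterone (11954 ± 10901, SD). Tgm4, of the same marker list, had 1201 ± 1981 (SD) in ARNoC with testosterone and means of 30.3 to 81.9 in the other groups. Of 9 seminal vesicle markers, Svs3a and Semg1 had no recorded count, and the summed level of the list was 0 to 50.7 normalized counts in any library. Libraries differed in non-epithelial markers: the summed level of 10 fibroblast and matrix genes ran from 4755 to 59870 normalized counts, and WT vehicle library 2 (8470) and ARNoC vehicle library 5 (5836) were the lowest of their groups. Library numbers are names only and pair nothing between groups.

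With testosterone, 7 of the 19 tested members were called in WT and 5 in ARNoC, and neither share was above that of all genes. These counts and medians describe the members that passed the filter and support nothing more, since Klk1b11 passed it through vehicle libraries alone and Serpinb2 through all but 1. In WT, Klk1b11 and 5 of 18 serpins fell, 1 serpin rose and 12 did not pass the test (edgeR quasi-likelihood test, Benjamini-Hochberg adjusted p below 0.05). Among all 15261 genes, 39.2% were called in WT, 20.4% higher and 18.8% lower. The median log2 change of the 18 serpins in WT was -0.60, against -0.02 for all genes tested. In ARNoC, Klk1b11 and 3 serpins fell, 1 serpin rose and 14 did not pass, where 36.2% of all genes were called, 19.4% higher and 16.8% lower. The serpin median there was -0.15, against -0.01 for all genes. The groups did not overlap for Klk1b11 and 4 serpins in WT and for Klk1b11 and 3 serpins in ARNoC, where 27.0% and 23.1% of all genes had groups that did not overlap. These responses depend on the scaling. With total-count scaling the median of all genes moved to -0.44 in WT and -0.36 in ARNoC, and calls over all genes split into 1099 higher and 9120 lower in WT and 1178 and 7548 in ARNoC, against 3114 and 2871, and 2962 and 2565, with the scaling used here. The serpin calls then became 1 higher and 10 lower in WT and 1 higher and 5 lower in ARNoC, which include those called before.

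**Figure D1:**
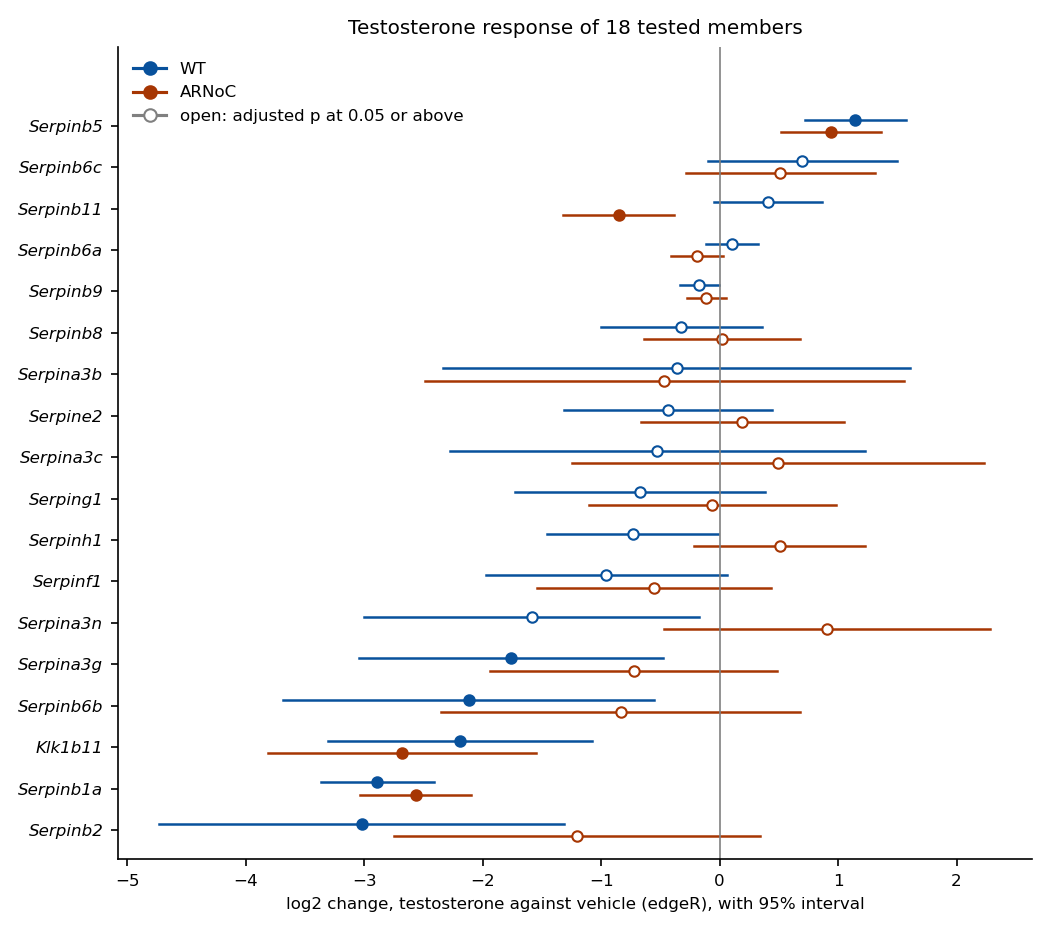
Log2 change from vehicle to testosterone in WT (blue) and ARNoC (orange) for 18 of the 19 tested members, sorted by the WT value; lines are 95% intervals from the edgeR fit, filled points have an adjusted p below 0.05. Serpinb5 is the only member called higher in both genotypes; Klk1b11 and Serpinb1a are called lower in both, and Serpinb11 is called lower in ARNoC with an uncalled WT value of 0.41 (-0.01 with total-count scaling).

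Between genotypes, 0 of the 19 tested members were called with vehicle, where 0.321% of all genes were called, 0.170% higher and 0.151% lower, and none had groups that did not overlap (1.76% of all genes). By an unadjusted p below 0.05 there were 2 serpins, Serpinb11 and Serpinb6a. DESeq2 called 1, Serpinb6a, among 137 calls over all genes. With testosterone, 1 serpin was called lower in ARNoC than in WT, Serpinb11, where 1.69% of all genes were called, 0.681% higher and 1.01% lower. Over all genes these were 104 higher and 154 lower, and 336 and 101 with total-count scaling. The difference between the ARNoC and WT responses, the interaction, was called for 0 members and 0 of all genes by edgeR. At an unadjusted p below 0.05 it took in 3 serpins, Serpina3n, Serpinb11 and Serpinh1. DESeq2 called 1 serpin, Serpinb11, among 29 calls over all genes. The share of all genes at an unadjusted p below 0.05 is not given here, so that these member counts are a description alone.

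All 27 kallikrein genes lay in 1 stretch of chromosome 7, positions 43690418 to 44229618 of GRCm38 in GENCODE M21, and only Klk1b11 reached the level for testing. Together they took up little of the libraries: the median of their summed normalized counts was 29.6 with vehicle and 22.3 with testosterone in WT, and 28.0 and 18.7 in ARNoC. Klk1b11 and Klk1b24, a glandular kallikrein copy of the same cluster chosen after its values were seen, moved in opposite directions. The 250 bases before each gene start are shown as a description of letters. In windows of 300 bases around the start, from RefSeq on GRCm38.p6, the pair had 243 identical of 286 aligned bases (85.0%). No other kallikrein windows were aligned, so that this share cannot be set against the rest of the cluster. Both genes are on the plus strand; the windows printed are chr7:43995627-43995876 for Klk1b11 and chr7:44187986-44188235 for Klk1b24. Capitals mark AGAACA, the letters of a single arm of the consensus androgen response element, starting 237 bases before the start of Klk1b24. These letters, on either strand, were in 19% of all promoter windows, and their part in either response was not tested.
Klk1b11: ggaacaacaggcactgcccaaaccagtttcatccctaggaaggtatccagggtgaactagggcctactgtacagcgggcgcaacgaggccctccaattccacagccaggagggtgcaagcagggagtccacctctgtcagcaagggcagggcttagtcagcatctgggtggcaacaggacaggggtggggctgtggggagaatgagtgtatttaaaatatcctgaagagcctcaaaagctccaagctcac
Klk1b24: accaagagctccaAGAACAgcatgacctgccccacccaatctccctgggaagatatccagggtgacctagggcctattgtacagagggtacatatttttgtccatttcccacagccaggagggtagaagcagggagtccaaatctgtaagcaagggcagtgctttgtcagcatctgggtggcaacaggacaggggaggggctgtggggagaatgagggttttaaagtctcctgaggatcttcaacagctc

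Klk1b11, ENSMUSG00000044485.4 at chr7:43995877-43999875, was lower with testosterone in both genotypes. It passed the filter through 5 WT and 3 ARNoC vehicle libraries and no testosterone library, so that a passing gene of this kind had to be lower with testosterone, and its p-values after the filter are no independent support. WT vehicle libraries 1 to 5 held 17.6, 20.9, 13.3, 13 and 10.7 normalized counts, and WT testosterone libraries 4.62, 0, 7.75, 1.17 and 3.33. Every vehicle library was above every testosterone library. The mean fell from 15.1 ± 4.09 to 3.38 ± 3.04 (SD, n = 5 each), a log2 change of -2.19 (SE 0.53; edgeR adjusted p = 0.00280). ARNoC vehicle libraries held 15.8, 9.50, 11.4, 9.41 and 24.1 normalized counts, and ARNoC testosterone libraries 2.13, 3.51, 0, 3.0 and 1.19. These groups did not overlap either, and the mean fell from 14.0 ± 6.18 to 1.96 ± 1.41 (SD, n = 5 each), a log2 change of -2.68 (SE 0.54; edgeR adjusted p = 0.000620). In the fit of all 26485 genes with any count, the changes were -2.23 in WT and -2.73 in ARNoC (edgeR adjusted p = 0.00420 and 0.000858), where 21.7% and 20% of genes were called. That fit does not use the filter, but Klk1b11 was singled out by it. Its p-values there are thus no independent support either. The genotypes did not differ beyond their spread: the log2 difference of ARNoC from WT was -0.09 with vehicle (95% interval -0.99 to 0.80) and -0.58 with testosterone (-1.97 to 0.81). Of the 50-base windows of its transcript, 12.8% also occur in transcripts of other genes, most often Klk1, and reads from such copies could have been placed on either.

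Klk1b24 and Klk1b5, at chr7:44188236-44192455 and chr7:44215945-44220703, stayed below the filter and went the other way; they and the other members below the filter that are named with values were chosen after their values were seen. Raw counts of Klk1b24 in WT vehicle libraries 1 to 5 were 0, 0, 0, 1 and 2, and in WT testosterone libraries 2, 4, 2, 8 and 11. In ARNoC they were 2, 1, 0, 0 and 0 with vehicle and 5, 11, 6, 9 and 9 with testosterone. Per unit of library size the testosterone sum was 10.9 times the vehicle sum in WT (27 against 3 counts; exact 95% interval 3.37 to 56.4, counting error only) and 16.3 times in ARNoC (40 against 3 counts; 5.2 to 82.6). In the fit of all genes with any count, Klk1b24 was called higher in both genotypes (edgeR adjusted p = 0.00420 in WT and 0.000461 in ARNoC). Klk1b5 had 1 count in all with vehicle and 9 with testosterone in WT, and 1 and 13 in ARNoC; in that fit its edgeR adjusted p was 0.0510 in WT and 0.0125 in ARNoC. Of the 50-base windows of these transcripts, 33.9% of Klk1b24 and 17.1% of Klk1b5 occur in other genes' transcripts. Submandibular gland, the main site of Klk1b expression in mice, was checked by 10 markers, of which Smr3a, Bpifa2 and Muc10 had no recorded count in any library. In WT the list summed to between 65.9 and 223 normalized counts in vehicle libraries and between 53.9 and 209.7 in testosterone libraries. In ARNoC it summed to between 93.1 and 194 and between 149.6 and 327. Of the 2 markers tested, Smgc, a submandibular gland secretory protein, rose with testosterone as Klk1b24 did, from a mean of 8.67 to 38.0 normalized counts in WT (log2 change 2.20; edgeR adjusted p = 0.0180) and from 29.8 to 138 in ARNoC (2.19; 0.00827). Amy1 was not called in either genotype. The part of such cells in the Klk1b24 and Klk1b5 values was not tested.

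Klk1, the true tissue kallikrein that releases kinins, had 16 and 13 raw counts in WT with vehicle and testosterone, and 32 and 3 in ARNoC. In the fit of all genes with any count its ARNoC change was called lower (edgeR adjusted p = 0.0428), but 24 of the 32 vehicle counts were from ARNoC vehicle library 2. Klk8, neuropsin, had the most counts of any kallikrein below the filter, 139 over all libraries, with sums of 40 and 21 in WT with vehicle and testosterone, and 49 and 29 in ARNoC. Its change was not called in WT (edgeR adjusted p = 0.455) or in ARNoC (0.688) in that fit. It reached 10 normalized counts in 3 libraries and was just outside the filter, whereas Klk1b11 and Serpinb2 reached it in 8.

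**Figure D2:**
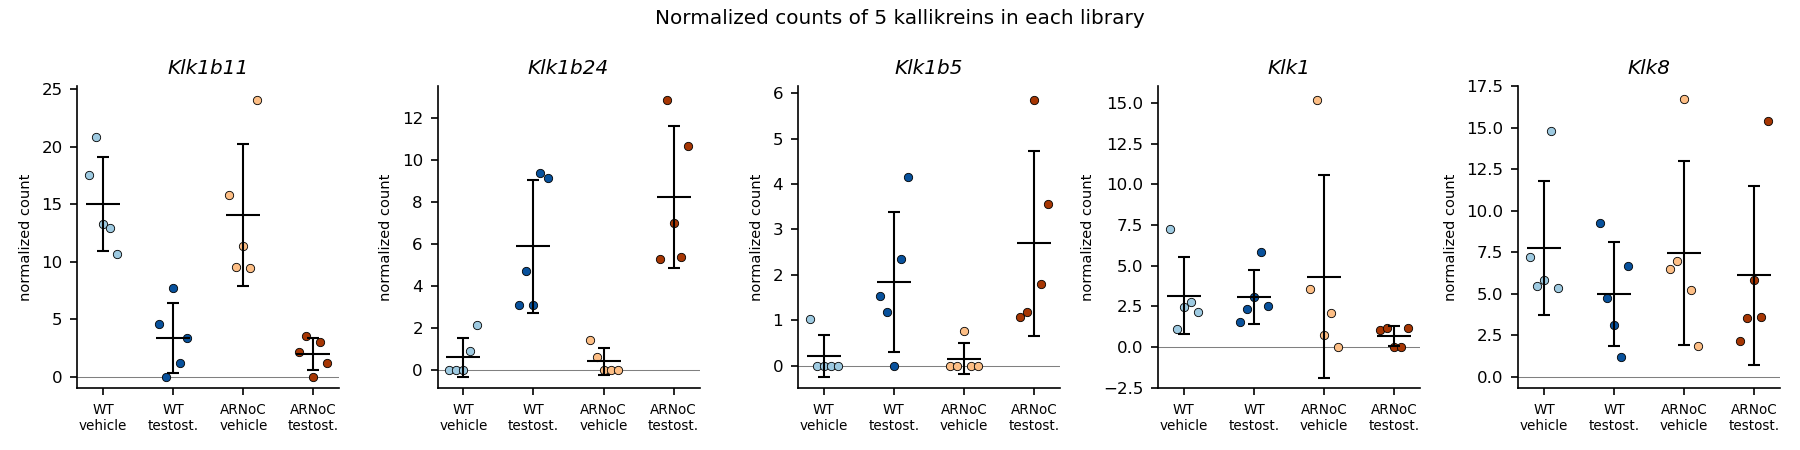
Normalized counts of 5 kallikreins (y axis, a separate scale per gene) in each of the 20 libraries by group; points are libraries, long bars the mean and whiskers the SD over 5 libraries. Klk1b11 is higher in every vehicle library than in any testosterone library of its genotype, Klk1b24 lies at or below 2.13 with vehicle and at or above 3.08 with testosterone, and Klk1 with vehicle in ARNoC rests on 1 library.

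Serpinb1a, the leukocyte elastase inhibitor that guards cells against neutrophil serine proteases, had the smallest adjusted p of all members in both genotypes. WT vehicle libraries 1 to 5 held 578, 1501, 1027, 1240 and 975 normalized counts, and WT testosterone libraries 139, 183, 136, 99.8 and 155. The lowest vehicle library was thus above the highest testosterone library. The mean fell from 1064 ± 342 to 142 ± 30.2 (SD, n = 5 each), 7.42-fold lower (log2 change -2.89, SE 0.23; edgeR adjusted p = 7.24e-09). ARNoC vehicle libraries held 855, 614, 837, 910 and 976 normalized counts, and ARNoC testosterone libraries 90.3, 132, 183, 156 and 142. Here too the groups did not overlap, and the mean fell from 839 ± 137 to 141 ± 33.9 (SD, n = 5 each), 5.92-fold lower (log2 change -2.56, SE 0.22; edgeR adjusted p = 3.02e-08). The genotypes did not differ beyond their spread with vehicle (log2 -0.34, 95% interval -0.77 to 0.09) or with testosterone (-0.01, -0.50 to 0.47), and the difference between the responses was 0.33 (-0.32 to 0.97). The gene lies at chr13:32842092-32851185 on the minus strand, and 2.81% of its 50-base windows occur in other transcripts, mostly those of Serpinb1c.

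Blood cell markers fell over the same groups. Of 13 myeloid markers tested, 13 fell in WT and 11 in ARNoC, with a summed level of 3853 to 20126 normalized counts with vehicle against 1795 to 3961 with testosterone in WT, and 3322 to 13539 against 3021 to 5829 in ARNoC. Of 5 neutrophil markers tested, 5 fell in WT and 3 in ARNoC; the sum of the list of 8 was 121 to 387 against 36.4 to 91.5 in WT, and 127 to 222 against 46.2 to 90.3 in ARNoC. Of 9 lymphocyte markers tested, 7 fell in each genotype. Among all genes tested, 18.8% fell in WT and 16.8% in ARNoC. Within groups, WT vehicle library 2 had the highest Serpinb1a (1501) and the lowest myeloid sum (3853). The same held for ARNoC vehicle library 5 (976 and 3322) and WT testosterone library 2 (183 and 1795). ARNoC testosterone library 3 was the highest of its group for both (183 and 5829). The part of blood cells in the fall of Serpinb1a was not tested.

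Serpins called lower in WT with testosterone and not in ARNoC numbered 3; the difference between the responses was not called for any of them, and they are named here after their values were seen. Serpinb2, plasminogen activator inhibitor 2, is a mostly intracellular inhibitor of urokinase. WT vehicle libraries held 16.5, 3.29, 12.4, 21.3 and 54.3 normalized counts, and WT testosterone libraries 3.08, 1.18, 1.55, 0 and 5.82, so that the groups overlapped at vehicle library 2. Serpinb2 passed the filter through 4 WT and 3 ARNoC vehicle libraries and 1 ARNoC testosterone library, so that its p-value after the filter is no independent support either. In the fit of all genes with any count, the WT change was -3.09 (edgeR adjusted p = 0.00689). The same limit holds there, since Serpinb2 was singled out by the filter. With the filter, the log2 change was -3.02 (SE 0.82; edgeR adjusted p = 0.00612) in WT, -2.36 without vehicle library 5 and -3.91 without testosterone library 5, and -1.21 (adjusted p = 0.217) in ARNoC. The interaction was 1.81 (95% interval -0.55 to 4.18). Serpinb2 shares 291 exon bases with Serpinb10 on the same strand, and 10.4% of its windows.

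Serpina3g, a member of the mouse antichymotrypsin-like group known from activated lymphocytes and other blood cells, had 50.6, 24.1, 26.5, 21.3 and 49.0 normalized counts in WT vehicle libraries and 7.70, 0, 10.9, 15.3 and 15 in WT testosterone libraries. The WT groups did not overlap, with a log2 change of -1.76 (SE 0.61; edgeR adjusted p = 0.0285). In ARNoC the vehicle libraries ran from 11.1 to 37.4 and the testosterone libraries from 6.00 to 49.2, the highest being library 3, and the change was -0.72 (adjusted p = 0.354). The WT call was lost without WT vehicle library 1 (adjusted p = 0.0656) or 5 (0.0630) or testosterone library 1 (0.0511). Serpinb6b, a copy in the Serpinb6 group, ran from 8.78 to 73.2 normalized counts in WT with vehicle and from 1.18 to 27.5 with testosterone, with a log2 change of -2.12 (SE 0.75; edgeR adjusted p = 0.0305). That call was lost in a fit of the WT groups alone (0.0502) and without any 1 of 7 libraries (0.0528 to 0.0811: vehicle 3, 4 or 5, or testosterone 1, 2, 3 or 4), and the value became -3.47 without testosterone library 5. In ARNoC the change of Serpinb6b was -0.84 (adjusted p = 0.394).

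Serpinb5, maspin, is a clade B serpin of epithelia that is not known to inhibit a protease, and it was the only tested member called higher in both genotypes. WT vehicle libraries 1 to 5 held 152, 185, 80.4, 143 and 95.9 normalized counts, and WT testosterone libraries 251, 285, 261, 312 and 329. No vehicle library reached the lowest testosterone library. The mean rose from 131 ± 42.8 to 288 ± 33.1 (SD, n = 5 each), 2.21-fold (log2 change 1.15, SE 0.21; edgeR adjusted p = 0.000176). ARNoC vehicle libraries held 144, 254, 110, 169 and 179 normalized counts, and ARNoC testosterone libraries 304, 313, 308, 372 and 341. Again the groups did not overlap, and the mean rose from 171 ± 53.2 to 327 ± 28.7 (SD, n = 5 each), 1.92-fold (log2 change 0.94, SE 0.20; edgeR adjusted p = 0.000990). The responses differed by -0.21 (95% interval -0.80 to 0.39). Maspin marks basal cells in many epithelia, and of 9 basal markers tested, 1 rose and 4 fell in WT and 0 rose and 5 fell in ARNoC. Among all genes tested, 20.4% rose and 18.8% fell in WT, and 19.4% rose and 16.8% fell in ARNoC.

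Serpinb11, a clade B serpin of the chromosome 1 cluster that also holds Serpinb5 (chr1:107361198-107380475), was the only tested member that edgeR called between the genotypes, lower in ARNoC with testosterone. WT testosterone libraries 1 to 5 held 912, 728, 771, 1055 and 886 normalized counts, and ARNoC testosterone libraries 288, 284, 179, 295 and 217. Every ARNoC library was below every WT library. The mean was 870 ± 128 in WT and 253 ± 51.7 in ARNoC (SD, n = 5 each), 3.43-fold lower in ARNoC (log2 difference -1.78, SE 0.23; edgeR adjusted p = 0.000184), where 3.85% of all genes had groups that did not overlap. With vehicle, WT libraries held 981, 709, 452, 651 and 507 and ARNoC libraries 314, 704, 360, 373 and 543. These groups overlapped, and the log2 difference of -0.51 (SE 0.22) was not called (edgeR adjusted p = 0.570, unadjusted p = 0.0287). Within ARNoC, Serpinb11 fell with testosterone from 459 ± 162 to 253 ± 51.7 (SD, n = 5 each; log2 change -0.85, SE 0.22; edgeR adjusted p = 0.00535). Within WT it was 660 ± 208 with vehicle and 870 ± 128 with testosterone, a change of 0.41 that did not pass the test (adjusted p = 0.144) and was -0.01 with total-count scaling. The interaction was -1.26 (95% interval -1.91 to -0.61; unadjusted p = 0.000650, edgeR adjusted p = 0.334), and DESeq2 called it (adjusted p = 0.0370). With the other alternatives, which used edgeR or limma-voom, its adjusted p was 0.235 to 0.600.

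Urothelial markers were set beside Serpinb11, since the urethra and bladder lie next to the ventral prostate. The summed level of 6 such genes was 8447 to 11105 normalized counts in WT with testosterone and 4089 to 7182 in ARNoC with testosterone, with no overlap; with vehicle it was 7781 to 12851 and 9775 to 13312. Upk1b was the marker called lower in ARNoC with testosterone (1160 against 591 normalized counts, log2 -0.97; edgeR adjusted p = 0.00231). Upk1a, which made up most of the sum, was not (8125 against 5655, adjusted p = 0.113). The defining umbrella cell markers Upk3a and Upk2 were at group means of 0 to 48.6 and 7.64 to 53.8. ARNoC testosterone library 3 was the lowest of its group for both the sum (4089) and Serpinb11 (179). WT vehicle library 3, in contrast, had the highest sum of its group (12851) and the lowest Serpinb11 (452). The part of urothelial cells in the Serpinb11 difference was not tested.

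**Figure D3:**
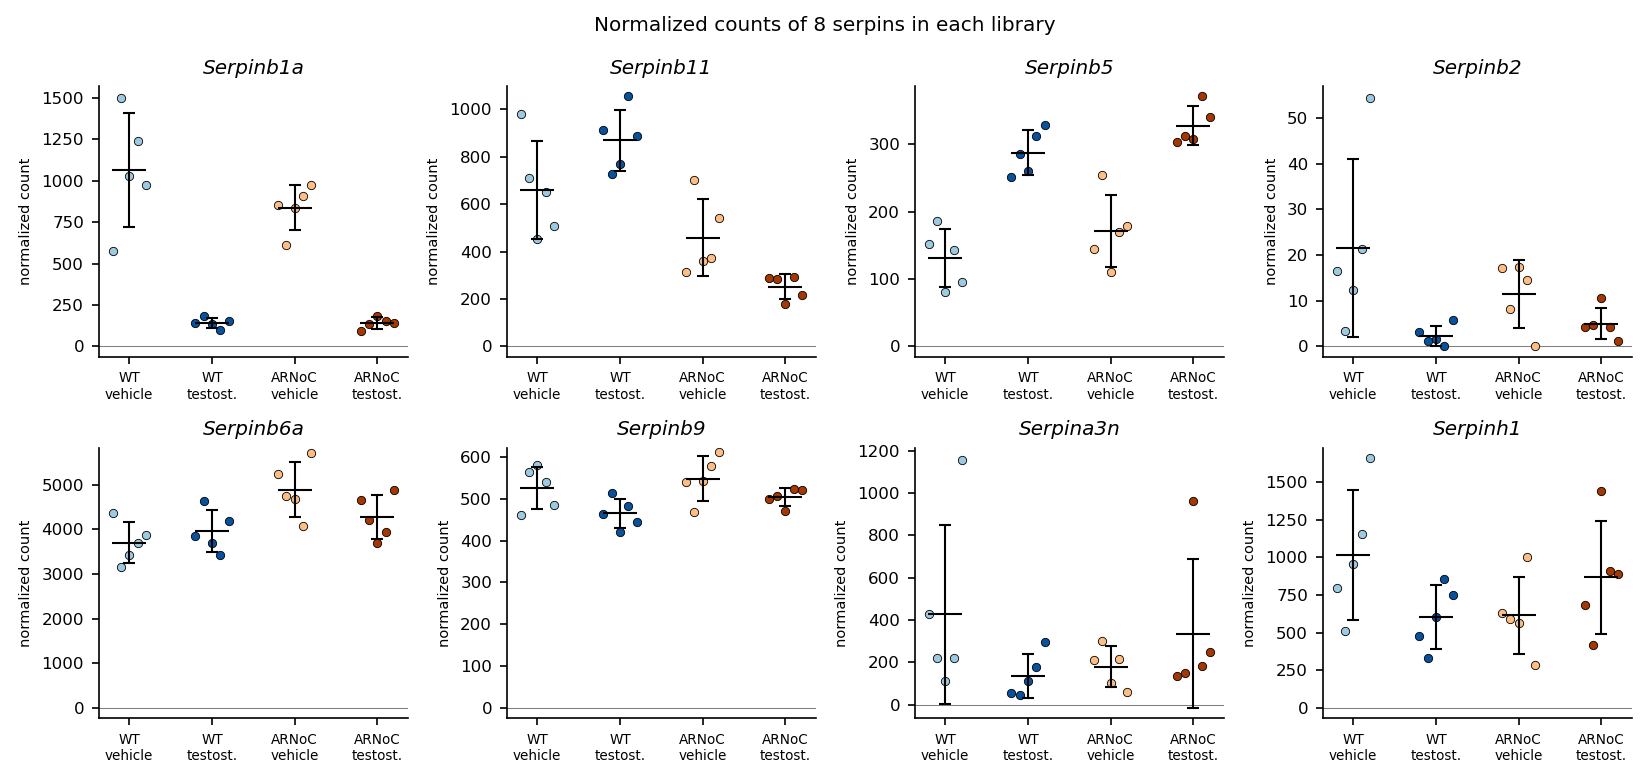
Normalized counts of 8 serpins (y axis, a separate scale per gene) in each of the 20 libraries by group; points are libraries, long bars the mean and whiskers the SD over 5 libraries. Serpinb1a is lower and Serpinb5 higher in every testosterone library of a genotype than in its vehicle libraries, Serpinb11 with testosterone is lower in all 5 ARNoC libraries than in all 5 WT libraries, and Serpina3n has 1 high library each in WT with vehicle (1157) and ARNoC with testosterone (960).

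Serpinb6a, Serpinb9, Serpinb8 and Serpinb6c, clade B serpins of the chromosome 13 and chromosome 1 clusters, were called in no comparison with the scaling used here. Serpinb6a, an inhibitor of trypsin-like and granule proteases inside cells, lies at chr13:33917918-34002794. WT vehicle libraries held 4358, 3148, 3423, 3695 and 3882 normalized counts, and ARNoC vehicle libraries 5231, 4758, 4690, 4083 and 5708. All but 1 ARNoC library were above all WT libraries, and the mean was 3701 ± 460 in WT and 4894 ± 611 in ARNoC (SD, n = 5 each). The log2 difference of 0.41 (SE 0.10) was not called by edgeR (adjusted p = 0.125), but was by DESeq2 (0.0253) and by edgeR without ARNoC vehicle library 4 (0.0476); without both stroma-poor libraries it was 0.30 (0.562). With testosterone the means were 3961 ± 469 and 4277 ± 493 (SD, n = 5 each), and neither testosterone response was called (0.11 in WT and -0.19 in ARNoC; with total-count scaling -0.32 and -0.53, both called lower). Exons of Serpinb6a overlap exons of Nqo2, Ripk1 and 1110046J04Rik on the other strand, and the sources used here do not say whether counting used strand.

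Serpinb9, the inhibitor of granzyme B, varied least of the tested members in share of its mean. It ran from 461 to 581 normalized counts in WT with vehicle, 420 to 513 in WT with testosterone, 469 to 613 in ARNoC with vehicle and 472 to 524 in ARNoC with testosterone. Its WT change was -0.17 (95% interval -0.34 to -0.00; edgeR adjusted p = 0.0993) and its ARNoC change -0.11 (-0.28 to 0.05), and with total-count scaling both were called lower (-0.60 and -0.46). Serpinb8, an inhibitor of furin-like enzymes, ran from 38.5 to 128 normalized counts over all libraries, with changes of -0.32 (-1.0 to 0.35) in WT and 0.02 (-0.63 to 0.68; -0.33 with total-count scaling) in ARNoC. Serpinb6c ran from 6.49 to 43.1 normalized counts, with changes of 0.70 (-0.10 to 1.49) in WT and 0.51 (-0.28 to 1.31) in ARNoC, neither called.

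The antichymotrypsin-like Serpina3 group stands in a cluster of 27 serpin genes on chromosome 12, of which 4 were tested. Serpina3n, a secreted acute-phase inhibitor of cathepsin G and granzyme-type proteases, and Serpina3c, its secreted relative, are shown by the 250 bases before their RefSeq gene starts on GRCm38.p6, because these were closely alike. Their 300-base windows had 275 identical of 294 aligned bases (93.5%). Those of Serpina3b and Serpina3g were 74.3% and 73.2% identical to that of Serpina3n. The same ARNoC testosterone library was highest for all 4 genes. The windows printed are chr12:104406458-104406707 on the plus strand for Serpina3n and chr12:104153873-104154122 on the minus strand for Serpina3c. Capitals mark AGAACA, which starts 183 bases before the start of Serpina3n and 180 bases before that of Serpina3c.
Serpina3n: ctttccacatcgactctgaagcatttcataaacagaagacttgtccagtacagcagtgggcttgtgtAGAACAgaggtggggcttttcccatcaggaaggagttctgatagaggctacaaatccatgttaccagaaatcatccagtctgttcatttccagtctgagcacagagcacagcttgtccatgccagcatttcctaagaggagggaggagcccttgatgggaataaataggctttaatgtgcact
Serpina3c: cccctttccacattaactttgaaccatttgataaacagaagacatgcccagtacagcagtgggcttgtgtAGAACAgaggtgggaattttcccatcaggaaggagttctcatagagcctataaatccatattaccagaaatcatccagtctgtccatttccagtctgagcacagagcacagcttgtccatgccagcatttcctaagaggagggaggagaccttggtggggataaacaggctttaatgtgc

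Serpina3n had 427, 223, 110, 221 and 1157 normalized counts in WT vehicle libraries 1 to 5, and 53.9, 44.8, 112, 180 and 297 in WT testosterone libraries. In ARNoC it had 211, 303, 105, 219 and 59.3 with vehicle and 136, 151, 960, 183 and 252 with testosterone. The groups overlapped in both genotypes, and WT vehicle library 5 and ARNoC testosterone library 3 stood far above the rest of their groups. The change was not called in WT (log2 -1.59, SE 0.68; edgeR adjusted p = 0.0695) or in ARNoC (0.91, SE 0.66; adjusted p = 0.303). The interaction was 2.50 (95% interval 0.52 to 4.47; unadjusted p = 0.0158, edgeR adjusted p = 0.488), and 1.62 without ARNoC testosterone library 3. In WT, DESeq2 (adjusted p = 0.0476), total-count scaling (0.0181) and fits without WT vehicle library 3 (0.040) or testosterone library 5 (0.0274) called it lower, whereas without WT vehicle library 5 the change was -0.79 (0.352).

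Serpina3c had 173, 8.78, 51.4, 87.1 and 129 normalized counts in WT vehicle libraries, and 27.7, 3.54, 4.65, 94.0 and 169 in WT testosterone libraries. In ARNoC it had 84.8, 117, 37.2, 15.7 and 46.3 with vehicle and 56.3, 23.4, 251, 28.2 and 68.8 with testosterone. Libraries of a group thus differed widely, and no comparison was called. The ARNoC testosterone library with 251 counts was also the one with the highest Serpina3b (43.3), Serpina3g (49.2) and Serpina3n (960). Serpina3b, also of this cluster, ran from 0 to 82.0 normalized counts over all libraries and was called in no comparison. Of the 50-base transcript windows, 2.92% of Serpina3b, 4.25% of Serpina3c, 15.5% of Serpina3g and 6.90% of Serpina3n occur in other genes' transcripts. Reads from such copies could have been placed on either.

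Serpina3c ranked the libraries much as adipocyte markers did. The summed level of 8 adipocyte markers (Adipoq, Plin1, Fabp4 and others) was 26530, 2138, 10788, 17131 and 18853 normalized counts in WT vehicle libraries 1 to 5 and 3137, 369, 411, 10087 and 19697 in WT testosterone libraries. In ARNoC it was 11887, 17056, 5253, 1709 and 7006 with vehicle and 5655, 2447, 16850, 3525 and 5473 with testosterone. Ordered from high to low, the 5 libraries came in the same order for Serpina3c and for the adipocyte sum in 3 of 4 groups, all but ARNoC with testosterone. Orders were compared for 19 members with 15 marker lists, 285 pairs in all, a comparison chosen after the data were seen; 2 pairs had the same order in 3 groups, 5 in 2, 24 in 1 and 254 in none. This is a description without a test, and the points of a pair share library and depth.

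The other pair was Serpinf1 with fibroblast and matrix genes. Serpinf1, pigment epithelium-derived factor, is a secreted serpin that inhibits no protease and limits vessel growth. It had 426, 106, 197, 239 and 557 normalized counts in WT vehicle libraries, 123, 76.6, 177, 167 and 230 in WT testosterone libraries, 388, 306, 258, 740 and 61.1 in ARNoC vehicle libraries and 175, 132, 330, 250 and 291 in ARNoC testosterone libraries. The 10 fibroblast markers summed to 30355, 8470, 27899, 29621 and 59870, then 7340, 4755, 12465, 13230 and 18081, then 33856, 23674, 21848, 48496 and 5836, then 12177, 10201, 26392, 16901 and 20441 in the same order of groups and libraries. Both were lowest of their vehicle groups in WT library 2 and ARNoC library 5. The change of Serpinf1 was -0.96 (95% interval -1.97 to 0.06) in WT and -0.56 (-1.54 to 0.43) in ARNoC, neither called (with total-count scaling the WT change was called, at -1.37), while 7 of 10 fibroblast markers fell in WT and 1 of 10 in ARNoC. Among all genes tested, 18.8% fell in WT and 16.8% in ARNoC. The part of stromal content in the Serpinf1 values was not tested.

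**Figure D4:**
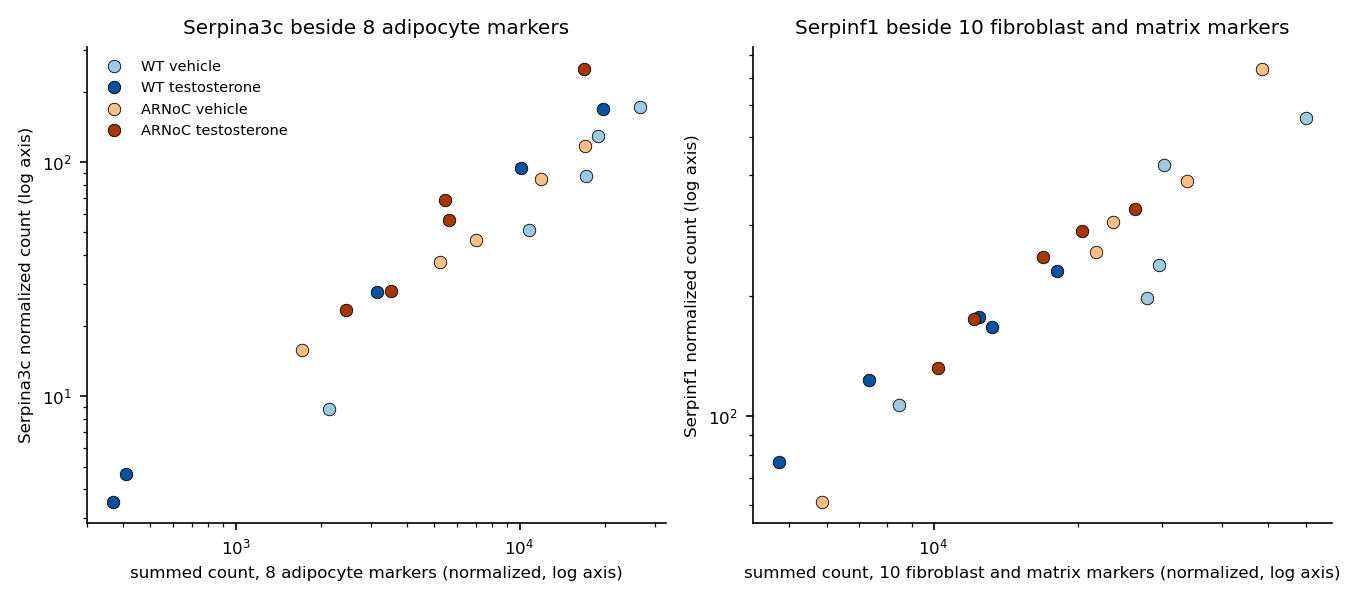
Left, Serpina3c against the summed normalized count of 8 adipocyte markers; right, Serpinf1 against that of 10 fibroblast and matrix markers, 1 point per library coloured by group, both axes logarithmic. The 2 pairs were chosen from 285 because their library orders matched in 3 of 4 groups, so that points rising together are no support. Values ran from 3.54 to 251 normalized counts of Serpina3c and from 61.1 to 740 of Serpinf1.

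Another 3 secreted or stromal serpins showed wide spread and no call. Serping1, the C1 inhibitor that restrains complement and contact-system proteases, ran from 638 to 3418 normalized counts in WT with vehicle, 403 to 1576 in WT with testosterone, 300 to 3102 in ARNoC with vehicle and 759 to 2343 in ARNoC with testosterone. Its changes were -0.67 (95% interval -1.73 to 0.38) and -0.06 (-1.10 to 0.98), and its library order matched the fibroblast sum in 2 groups. Serpine2, protease nexin 1, an inhibitor of thrombin and urokinase at the cell surface, ran from 53.7 to 354 normalized counts over all libraries, with changes of -0.44 (-1.31 to 0.44) in WT and 0.19 (-0.67 to 1.05; -0.17 with total-count scaling) in ARNoC. Serpinh1, the collagen chaperone HSP47, had 793, 509, 953, 1157 and 1659 normalized counts in WT vehicle libraries and 476, 329, 602, 857 and 752 in WT testosterone libraries. In ARNoC it had 631, 593, 563, 1003 and 287 with vehicle and 682, 417, 1437, 909 and 889 with testosterone. The groups overlapped in each genotype, with changes of -0.74 (SE 0.35; edgeR adjusted p = 0.101) in WT and 0.51 (SE 0.35; 0.270) in ARNoC. The interaction was 1.24 (95% interval 0.22 to 2.26; unadjusted p = 0.0197, edgeR adjusted p = 0.501). In WT the fall was called without both stroma-poor libraries (-0.90, edgeR adjusted p = 0.0281) and with total-count scaling (-1.15, 0.0116).

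Levels between genes were compared per kilobase of exon (GENCODE M21). Serpinb6a and Serping1 stood highest in the group means: Serpinb6a had 684 ± 85.1 normalized counts per kilobase in WT with vehicle and Serping1 734 ± 497 (SD, n = 5 each), and these neighbours overlapped in every group. In WT with vehicle the order went on with Serpinb1a (462 ± 148), Serpinh1 (415 ± 177) and Serpinb11 (302 ± 95), which overlapped with each other. The lowest were Serpinb6c (12.4 ± 4.74) and Serpinb2 (9.18 ± 8.29). With testosterone Serpinb1a went from the third to the ninth place in both genotypes (61.9 ± 13.1 in WT and 61.1 ± 14.7 in ARNoC), and Serpinb5 from the ninth to the sixth (105 ± 12 and 119 ± 10.4). Serpinb11 held the third place in WT (398 ± 58.8) and the seventh in ARNoC (116 ± 23.6) with testosterone.

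**Figure D5:**
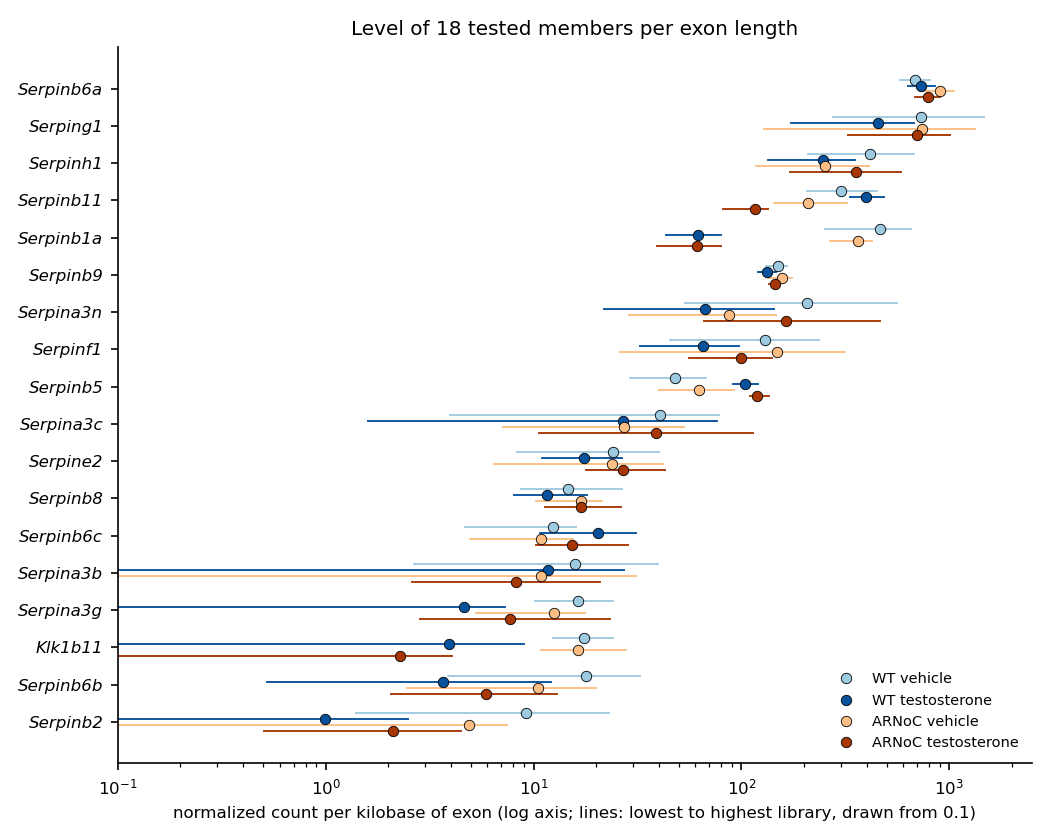
Mean normalized count per kilobase of exon (log axis) of 18 of the 19 tested members in each group, points for the mean of 5 libraries and lines from the lowest to the highest library, with values below 0.1 drawn at 0.1. Serpinb1a, Serpinb5 and Klk1b11 have testosterone ranges apart from the vehicle ranges of their genotype, Serpinb11 with testosterone lies lower in ARNoC (116) than in WT (398), and the lines of Serpinb6a and Serpinb9 are short in all groups.

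Members below the filter had few counts. Serpina5, the protein C inhibitor of the male tract, had 1 count over all libraries, Serpini1, neuroserpin, had 90, and Serpinc1, antithrombin, had 64. Serpina3k and Serpina3m, of the chromosome 12 cluster, had 117 and 127, with 43 and 63 of them in ARNoC testosterone library 3. They were called higher with testosterone in ARNoC in the fit of all genes with any count (edgeR adjusted p = 0.0489 and 0.0160), as was Serpina9 (0.0419), which had 9 counts with vehicle and 24 with testosterone. In that fit no serpin below the filter was called in WT. These calls, too, are to be read against the shares of all genes called in that fit, given with Klk1b11 above.

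A search for letters of the androgen response element covered the RefSeq windows of 16 of the 19 tested members on both strands. The consensus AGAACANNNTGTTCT was in none of them and in 0.00913% of all 32851 promoter windows of the same length. The arm AGAACA, or TGTTCT on the other strand, was in the windows of 4 members, Serpina3b, Serpina3c, Serpina3n and Serpinb8, and in 19% of all windows. The letters TATAAA were in those of 4 members and in 13.6% of all windows. A match describes letters alone.

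Other inhibitors and proteases were set beside the members through lists chosen with earlier results of these data known. Each list's counts are to be read against the shares over all genes, 39.2% called in WT (20.4% higher, 18.8% lower) and 36.2% in ARNoC (19.4% higher, 16.8% lower). Of 22 tested protease inhibitors outside the serpins, 5 rose and 5 fell in WT and 6 rose and 3 fell in ARNoC, with medians of -0.25 and -0.29, and the share called was near that of all genes. The 3 with the smallest adjusted p in WT all rose. Wfdc3, a whey acidic protein-type inhibitor, rose from a mean of 790 to 29065 normalized counts in WT, 37.0-fold, and 23.3-fold in ARNoC (edgeR adjusted p = 4.10e-08 and 1.75e-07). Timp4, an inhibitor of metalloproteinases, rose 9.20-fold and 10.2-fold (edgeR adjusted p = 6.96e-12 and 4.28e-12). Spink5, the Kazal-type inhibitor of kallikreins in skin, rose from 11304 to 50647 normalized counts in WT, 4.50-fold, and from 21897 to 76589 in ARNoC, 3.51-fold (2.17e-08 and 2.09e-07). Spink5 was also higher in ARNoC than in WT with vehicle (log2 0.96; edgeR adjusted p = 0.0166). The 5 that fell in WT, named after their values were seen, were Timp2, Spint1, Timp1, Csta1 and Itih4, with log2 changes of -0.99, -0.42, -1.66, -1.35 and -2.86. In ARNoC, Timp2, Spint1 and Wfdc2 fell, with log2 changes of -0.80, -0.68 and -0.91.

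Of 19 tested trypsin-like proteases, not all of them of epithelia, 2 rose and 9 fell in WT and 1 rose and 4 fell in ARNoC (medians -0.55 and -0.58). Calls in WT were thus more frequent, and in ARNoC less frequent, than the shares of all genes just given, and neither gap was tested. Their list also holds complement proteases such as C1ra, and Cfd, which is among the adipocyte markers above. The transmembrane protease Tmprss2 fell by 0.75 on the log2 scale in WT and by 0.69 in ARNoC, Prss27 fell by 1.63 and by 1.77, and Tmprss4 rose by 0.98 and 1.04 (all called). Of 17 tested genes of plasminogen activation and fibrinolysis, a pathway that Serpinb2 restrains, 2 rose and 6 fell in WT and 3 rose and 3 fell in ARNoC (medians -0.79 and -0.26), against 39.2% and 36.2% of all genes called. Proc, protein C, rose 3.50-fold in WT and 2.44-fold in ARNoC, Anxa2, a plasminogen docking protein, rose 1.43-fold and 1.39-fold, and coagulation factor F10 fell by 2.40 and by 1.5 on the log2 scale (edgeR adjusted p = 0.00345 and 0.0360).

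Of 16 tested genes of the kinin system and kallikrein substrates, 2 rose and 3 fell in WT and 2 rose and 5 fell in ARNoC (medians -0.31 and -0.45), where 39.2% and 36.2% of all genes were called. The kinin-degrading enzymes Mme and Ace rose 7.29-fold and 1.76-fold in WT and 5.85-fold and 1.94-fold in ARNoC, and Cpm, a carboxypeptidase that also trims kinins, fell by 0.59 and by 0.43 on the log2 scale. Another list held granule and lysosomal proteases, many of them targets of serpins, and also Prf1, Cpa3, Casp1 and Casp8. Of its 12 tested genes, 0 rose and 5 fell in each genotype (medians -1.10 and -1.12), where 18.8% and 16.8% of all genes fell. Cathepsin S, Ctss, was 3.77-fold lower in WT and 2.30-fold lower in ARNoC with testosterone, Ctsb 1.98-fold and 1.36-fold lower, and Ctsl 1.39-fold and 1.24-fold lower; Ctss is also among the myeloid markers above. Of 21 tested folding partners and collagens beside Serpinh1, 9 rose and 5 fell in WT and 11 rose and 0 fell in ARNoC (medians 0.06 and 0.57), where 20.4% and 19.4% of all genes rose. The endoplasmic reticulum chaperones Calr, Pdia6 and Pdia3 rose 4.00-fold, 3.51-fold and 2.46-fold in WT and 3.63-fold, 3.23-fold and 2.18-fold in ARNoC. They were named by the smallest adjusted p in WT. Group means of the collagens Col1a1, Col1a2 and Col3a1 went from 2436 to 723, 3777 to 1480 and 7708 to 2322 normalized counts in WT. In ARNoC they went from 1290 to 1398, 2371 to 2369 and 5884 to 3896. Libraries differed widely, as for Col1a1 in WT with vehicle (2436 ± 1617, SD).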

How the data were processed

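Ventral prostate RNA of 20 libraries was sequenced by the authors from Illumina TruSeq libraries. Per the submitters' processing notes, FastQC 0.11.7, HISAT2, SAMtools 1.5, HTSeq and DESeq2 were used with build mm10. Gene annotation and strandedness of counting were not given in the sources used here. Raw counts by gene symbol form the count table that the authors deposited. Their deposited signal values, here called normalized counts, are counts over the library's size factor, for the 23221 genes with more than 3 counts in total. The deposited ratio values are the size factors. Normalized count times size factor gave whole counts in 100% of cases (tolerance 1e-06), and 0 sample columns were left unmatched.

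Genes reaching 10 normalized counts in 5 or more of 20 libraries were tested on raw counts with edgeR 4.0.16 (R 4.3.3; trimmed mean of M-values scaling, 1 mean per group over all 4 groups, quasi-likelihood F-test) and adjusted over 15261 genes (Benjamini-Hochberg, 0.05). A common biological coefficient of variation of 0.214 was estimated. Comparisons, 5 in all, were testosterone against vehicle in each genotype, ARNoC against WT under each treatment, and the interaction (ARNoC response minus WT response). Fold changes are from the fit. DESeq2 1.42.0, limma-voom (limma 3.58.1), other scalings, filters and left-out libraries were alternatives. The edgeR script was tested on simulated data. No 2 replicates of a group agreed within sampling noise (40 pairs; chi-square per degree of freedom 7.97 to 42.9). Intervals of counts cover counting error only.

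The members and gene lists were chosen with earlier results of these data known. Genes were named by rule: kallikreins that passed the filter; serpins called with a log2 change of at least 1 in size and a mean of 50 or more normalized counts where higher; 12 serpins of known function; and, per gene list, up to 3 called genes with the smallest adjusted p in WT. Tested members outside this rule, such as Serpina3c, Serpina3b, Serpinb8 and Serpinb6c, were named with their values seen. Coordinates and exon lengths are from GENCODE M21 (GRCm38, matched for 94 of 94 members), and promoter windows from RefSeq. Some results are not reported here.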

Additional observations from a re-analysis of the deposited data

Results flagged for a closer look

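In 6 of the 76 groups of 5 libraries examined (19 members in 4 groups), 1 library lay far from the other 4 by Dixon's criterion. Its rate of about 1 in 20 groups holds for independent, normally distributed values. Here the counts were not transformed and the members share the same libraries, so that this rate is no yardstick for the 6. ARNoC testosterone library 3 was the high library for 4 members of the chromosome 12 cluster: Serpina3b at 43.3, Serpina3c at 251, Serpina3g at 49.2 and Serpina3n at 960 normalized counts. The adipocyte marker sum of ARNoC testosterone library 3 was 16850, the highest of its group, and its fibroblast sum was 26392, also the highest. The part of either in the values of the 4 members was not tested. WT testosterone library 5 was high for Serpinb6b, at 27.5 normalized counts, and ARNoC testosterone library 2 for Serpinb6c, at 39.8.

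The log2 response of Serpinb11 to testosterone was -0.85 in ARNoC and 0.41 in WT. The interaction of -1.26 had an unadjusted p of 0.000650 and did not pass the correction over all genes (edgeR adjusted p = 0.334; 0.235 to 0.600 in the alternatives with edgeR or limma-voom), whereas DESeq2 called it (adjusted p = 0.0370).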

How the results depend on the processing

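Among the alternatives run, no member with an unadjusted p below 0.05 changed sign. With total-count scaling, calls over all genes were 10219 in WT (1099 higher and 9120 lower), 8726 in ARNoC (1178 and 7548), 437 between genotypes with testosterone (336 and 101) and 2 for the interaction, so that the larger side of the split turned from higher to lower in both testosterone comparisons and from lower to higher between genotypes with testosterone, and serpin calls in WT were 11. With DESeq2, calls over all genes were 137 between genotypes with vehicle, 498 with testosterone and 29 for the interaction, and 1 serpin was called with vehicle and 1 for the interaction. Without the filter, kallikrein calls were 2 in WT and 4 in ARNoC, serpin calls in ARNoC were 7, and the interaction had 2 calls over all genes. These member calls are to be read against the shares of all genes called in that fit, given with Klk1b11 above. The kallikrein calls went both ways: Klk1b24 was higher and Klk1b11 lower in both genotypes. In ARNoC, Klk1b5 was also higher and Klk1 lower, the latter resting mostly on ARNoC vehicle library 2. With a minimum of 50 normalized counts, kallikrein calls were 0 in both genotypes, since Klk1b11 was not tested, and serpin calls in WT were 2, since fewer serpins were tested. In a fit of the compared groups alone, calls over all genes with vehicle were 19. Except where stated, the cause was not tested.

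Leaving out each library in turn gave, in WT, 5292 to 6125 calls over all genes, 4 to 7 serpins (4 without vehicle library 5 or testosterone library 1) and 1 to 1 kallikreins, and in ARNoC 4864 to 5504, 3 to 5 and 1 to 1. Between genotypes it gave 29 to 71 calls over all genes and 0 to 1 serpins with vehicle (29 without WT vehicle library 4 or ARNoC vehicle library 1, 31 without ARNoC vehicle library 5, and the serpin, Serpinb6a, without ARNoC vehicle library 4), and 154 to 258 and 1 to 1 with testosterone (159 without WT testosterone library 1 and 154 without library 3). The interaction had 0 to 2 calls and 0 serpins. The calls of Klk1b11, Serpinb1a and Serpinb5 in both genotypes, of Serpinb2 in WT and of Serpinb11 in ARNoC and between genotypes with testosterone were kept in all alternatives in which the gene was tested. Klk1b11 and, but for 1 library, Serpinb2 passed the filter through vehicle libraries, so that their kept calls are no independent support. Low counts limit the kallikreins most: 26 of 27 stayed below the filter, and 12 had no count. No paired analysis was possible because the labels give no replicate numbers shared between groups.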
